A study of Mus musculus with 6 samples.

Results

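The 9 genes described here mark the step from neural progenitor to young neuron: Neurog2, Hes6, Dcx, Tubb3, Elavl3, Elavl4, Stmn2, Map2 and Gap43. They were chosen by gene symbol from the 42365 rows of a count table, and each symbol was found in 1 row. The table held RNA sequencing counts of 6 libraries from cultured mouse neural progenitor cells (NPC), in 3 groups of 2: parental wild-type cells, and clones 1 and 2 of cells labelled as PARKIN knockout. No treatment, time point or passage is given in the sources used here, nor how the knockout was made. Each labelled knockout line is 1 clone, and whether its 2 libraries came from separate cultures is not given, so p-values from single libraries measure a spread that may be technical. In their titles the parental libraries are numbered as clones too, without further detail.

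Neurons arise from progenitors when proneural factors, transcription factors of the basic helix-loop-helix class such as Neurog2, overcome repression by Hes and Id proteins. These factors bind DNA at short motifs called E-boxes and switch on a cascade of neuronal genes. Hes6 is an unusual member of the Hes family that opposes Hes1 and favours neuronal differentiation. Newborn neurons then express microtubule and growth cone proteins, among them doublecortin (Dcx), class III beta tubulin (Tubb3), Stmn2, Map2 and Gap43, and the RNA-binding proteins Elavl3 and Elavl4. Some of these genes are not exclusive to neurons, as Map2 is also known from glial precursors.

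Library totals ran from 58871554 to 69530032 counts. Genes with any count numbered 37678 and 37419 in the parental libraries. There were 32686 and 32130 in clone 1 and 31262 and 30747 in clone 2. The part of this difference in the falls of genes with few counts was not tested. The genotype was taken from the labels alone, so the clones are written as labelled knockout. The labelled cell type was checked with 10 progenitor markers, all with counts in every group but not at a steady level. Levels are given as CPM, counts scaled to a common library size adjusted by the TMM method. Over both clones 5 of the 10 fell (Sox1, Hopx, Sox9, Msi1 and Prom1), 2 rose (Nes and Fabp7) and 3 did not pass. Of all genes tested 13.6% fell and 13.0% rose over both clones. In each clone alone 7 of the 10 were lower, where 27.2% of all genes were lower in clone 1 and 26.8% in clone 2. Sox1 fell from a mean of 60.5 CPM to 3.35 and 3.17 CPM and Hopx from 14.3 to 1.77 and 2.22, while Fabp7 rose from 164.6 to 601 and 606 CPM (edgeR adjusted p = 0.00013, 0.000624 and 0.00031). The sum of the 10 was 3727 to 3738 CPM in parental cells, 2712 to 2730 in clone 1 and 3254 to 3272 in clone 2, and Vim made up 1978, 1235 and 1802 CPM of it.

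Of the 9 genes, 6 were lower in both labelled knockout clones and Hes6 was higher. With both clones as replicates Dcx fell 6.95-fold, Tubb3 4.38-fold and Elavl3 4.4-fold, and Gap43 fell further, to a different level in each clone. Neurog2 and Stmn2 were lower too, but on few counts. Elavl4 and Map2 were not lower in either clone. At an adjusted p of 0.05, edgeR's quasi-likelihood test with the clones as replicates called 7 of the 9 genes, 1 higher and 6 lower. The spread in this test joins that between the clones with that between the parental libraries, which may be technical. Its p-values therefore do not measure the spread between clones alone. Over all 24506 genes tested, 26.7% were called, 13.0% higher and 13.6% lower. Neurog2 and Stmn2 passed the filter on low counts through the parental libraries alone, so their place among the lower genes follows in part from the filter. The count fell from 7 to 4 without either parental library, with Hes6, Stmn2 and Gap43 lost in both cases, while Dcx, Tubb3, Elavl3 and Neurog2 were still called.

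**Figure D1:**
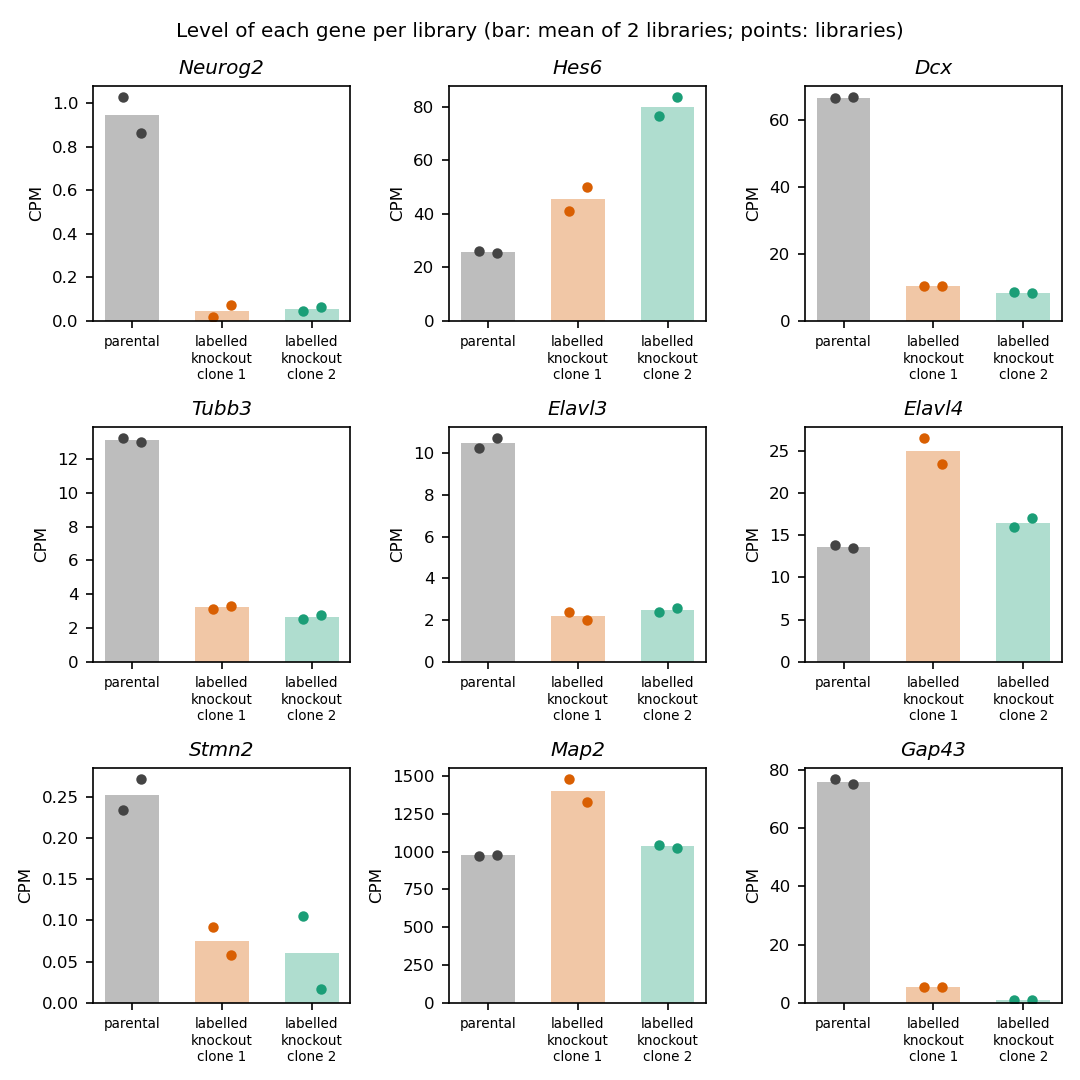
Level of each of the 9 genes in CPM on linear axes that start at 0, with 1 panel per gene; bars are the mean of 2 libraries and points are the libraries. Dcx sits at 66.6 and 66.9 CPM in the parental libraries and at most at 10.5 in the others, while Hes6 is lowest in the parental libraries and Map2 is at 971 CPM or above in all 6.

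Neurog2, the proneural factor (chr3:127633135-127635631, plus strand, GRCm38), had 66 and 51 counts in parental cells. Clone 1 had 1 and 5 counts and clone 2 had 3 and 4. These were 1.03 and 0.865 CPM, 0.0153 and 0.0729 CPM, and 0.0453 and 0.0649 CPM. Both parental libraries lay above all others, yet even there the gene was close to 1 CPM. Summed over libraries, the parental level was 21.3 times that of clone 1 (95% exact interval 9.48 to 59.1) and 17.4 times that of clone 2 (8.17 to 44.1). These intervals cover counting error only. Across both clones Neurog2 fell by 4.19 on the log2 scale (SE 0.35, edgeR adjusted p = 0.00123). The fitted fall in clone 1 was the largest when its second library was left out, so that 1 count remained, at -5.77 against -4.35 with both.

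Hes6, the Hes family member that promotes differentiation (chr1:91411483-91414038, minus strand), was at 26.2 and 25.2 CPM in the parental libraries. It was at 41.0 and 50.0 CPM in clone 1 and at 76.5 and 83.5 CPM in clone 2. The groups did not overlap and their order was parental, clone 1, clone 2. Against parental cells Hes6 rose 1.77-fold in clone 1 (log2 fold change 0.83, SE 0.084, edgeR adjusted p = 3.32e-06) and 3.11-fold in clone 2 (1.64, SE 0.084, adjusted p = 4.28e-09). The change across both clones as replicates was 1.32 (SE 0.28, edgeR adjusted p = 0.0245). It missed the threshold without parental library 1 (adjusted p = 0.134), parental library 2 (0.147) or the second library of clone 1 (0.0505).

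Upstream windows of 4 of the genes are shown because Neurog2, Dcx and Elavl3 fell while Hes6 rose in the same clones. They come from RefSeq promoters of GRCm38.p6, read 5′ to 3′ towards the gene, and end before both the RefSeq start and the start of the gene in the GENCODE annotation. Capitals mark each E-box, CANNTG.
Neurog2, chr3:127632886-127633134, plus strand: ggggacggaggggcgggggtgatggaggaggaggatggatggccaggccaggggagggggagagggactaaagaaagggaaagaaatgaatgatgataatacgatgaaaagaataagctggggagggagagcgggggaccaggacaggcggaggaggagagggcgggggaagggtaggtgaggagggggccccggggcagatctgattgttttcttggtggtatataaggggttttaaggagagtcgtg
Hes6, chr1:91414039-91414288, minus strand: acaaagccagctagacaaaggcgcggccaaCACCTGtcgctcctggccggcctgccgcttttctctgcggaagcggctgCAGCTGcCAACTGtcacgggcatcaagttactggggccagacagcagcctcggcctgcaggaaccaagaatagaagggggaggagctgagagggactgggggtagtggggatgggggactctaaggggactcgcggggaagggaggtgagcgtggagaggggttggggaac
Dcx, chrX:143933312-143933469, minus strand: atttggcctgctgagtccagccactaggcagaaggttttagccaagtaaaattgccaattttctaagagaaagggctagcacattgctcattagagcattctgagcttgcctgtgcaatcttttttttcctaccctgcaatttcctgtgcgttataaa
Elavl3, chr9:22052024-22052273, minus strand: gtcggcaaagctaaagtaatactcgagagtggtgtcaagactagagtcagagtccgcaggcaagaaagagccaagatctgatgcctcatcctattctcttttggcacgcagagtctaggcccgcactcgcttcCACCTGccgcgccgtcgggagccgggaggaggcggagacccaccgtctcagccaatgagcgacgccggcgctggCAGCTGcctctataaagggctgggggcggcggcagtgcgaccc
RefSeq windows were found for 7 of the 9 genes, not for Stmn2 and Gap43. In the 250 bases before the RefSeq start nearest to the annotated gene start, 2 of the 7 held a CANNTG motif: Hes6 with 3 and Elavl3 with 2. CANNTG is its own reverse complement, so 1 search covers both strands, and it was found in 66.2% of 32841 such windows. CAGCTG, 1 form of the motif, stood in the windows of both Hes6 and Elavl3 and in 13.0% of all windows. So did CAGGTG, written CACCTG on the other strand, which stood in 17.2% of all. CATATG stood in 0 of the 7 and in 3.47% of all. CAGATG, a form known to be bound by Neurog factors, was sought on both strands and stood in 0 of the 7 and in 14.4% of all. All of these forms are also counted as CANNTG. Windows at other annotated starts differed: all 3 of those of Elavl4 held CAGATG. These are matches of letters in a short window, and no binding was measured.

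Dcx encodes doublecortin, which stabilises microtubules in migrating young neurons. The gene lies at chrX:143855842-143933311 on the minus strand. Parental cells had 66.6 and 66.9 CPM, clone 1 had 10.5 and 10.3, and clone 2 had 8.53 and 8.34. All 4 labelled knockout libraries lay far below both parental ones, and the clones did not overlap either. The log2 fold change was -2.69 (SE 0.064) in clone 1 and -2.98 (SE 0.065) in clone 2, with edgeR adjusted p of 1.82e-15 and 6.95e-16. Taken over both clones it was -2.80 (SE 0.13, edgeR adjusted p = 0.000328).

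Tubb3, the neuronal beta tubulin (chr8:123411424-123422015, plus strand), was at 13.2 and 13.0 CPM in the parental libraries. Clone 1 had 3.11 and 3.32 CPM and clone 2 had 2.52 and 2.76. The parental libraries lay above all others, and the clones lay close together. Tubb3 fell 4.07-fold in clone 1 (edgeR adjusted p = 7.22e-11) and 4.97-fold in clone 2 (1.87e-11), and by 2.13 on the log2 scale with the clones as replicates (SE 0.16, adjusted p = 0.000998). Tubulin genes are alike in sequence, so some of these reads may belong to other isotypes.

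Gap43 encodes a growth cone protein of extending axons. The gene lies at chr16:42248442-42340651 on the minus strand. Parental cells had 76.9 and 75.1 CPM, clone 1 had 5.57 and 5.27, and clone 2 had 0.921 and 1.07. The 3 groups stood apart, with clone 2 the lowest. Its log2 fold change was -3.81 (SE 0.073) in clone 1 and -6.25 (SE 0.092) in clone 2, with edgeR adjusted p of 1.38e-16 and 7.55e-18. The change across both clones was -4.54, with an SE of 0.89 that includes the distance between the clones (edgeR adjusted p = 0.0315). That call was lost without parental library 1 (adjusted p = 0.432) or 2 (0.441).

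Stmn2 encodes a stathmin that regulates microtubules in growing axons. The gene lies at chr3:8509360-8561606 on the plus strand. Parental cells had 15 and 16 counts, clone 1 had 6 and 4, and clone 2 had 7 and 1. No library exceeded 0.271 CPM, so the gene was close to the limit of detection in all groups. The parental level was 3.38 times that of clone 1 (95% exact interval of the counts 1.62 to 7.73) and 4.03 times that of clone 2 (1.81 to 10.1). Over both clones the log2 fold change was -1.83 (SE 0.44, edgeR adjusted p = 0.0339). Leaving out any 1 library other than the first of clone 1 took the adjusted p above the threshold, to between 0.0552 and 0.268.

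Map2, a microtubule-associated protein of dendrites (chr1:66175273-66442583, plus strand), was the most abundant of the 9 genes in every library. Parental cells had 971 and 978 CPM, clone 1 had 1480 and 1326, and clone 2 had 1047 and 1023. The clone 1 libraries were the highest, and clone 2 lay just above the parental pair. Map2 rose by 0.53 on the log2 scale in clone 1 (SE 0.048, edgeR adjusted p = 8.91e-08), whereas in clone 2 it did not pass (0.087, SE 0.048, adjusted p = 0.145). The value over both clones was 0.35 (SE 0.15, edgeR adjusted p = 0.153). The counts are per gene and do not tell the isoforms of Map2 apart. In clone 2 the gene passed when either library of clone 1 was left out of the shared fit (adjusted p = 0.000766 and 0.00602), at log2 fold changes of 0.12 and 0.099.

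**Figure D2:**
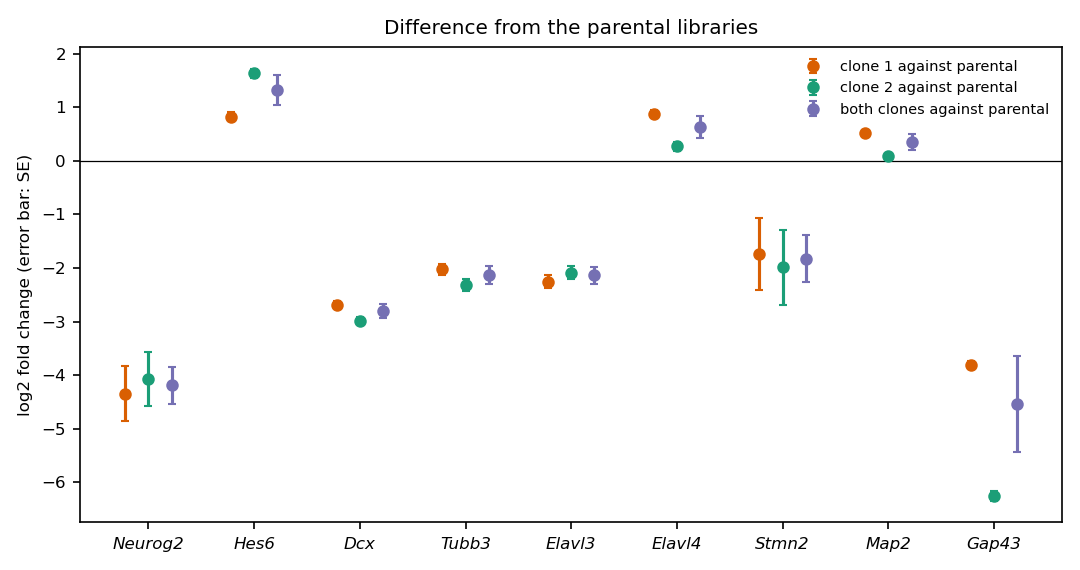
Log2 fold change against the parental libraries for the 9 genes, with the standard error as the error bar, for each clone and for both clones as replicates. Gap43 lies at -3.81 in clone 1 and -6.25 in clone 2, Dcx, Tubb3 and Elavl3 lie between -2.03 and -2.98 in both, and Hes6, Elavl4 and Map2 lie above 0.

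Elavl3 and Elavl4, close relatives that stabilise and splice neuronal RNAs, changed in opposite directions in each clone. Elavl3 (chr9:22015005-22052023, minus strand) had 10.2 and 10.7 CPM in parental cells, 2.38 and 2.01 in clone 1, and 2.37 and 2.56 in clone 2. The parental libraries lay above all others and the clones overlapped. Elavl3 fell by 2.14 on the log2 scale with the clones as replicates (SE 0.16, edgeR adjusted p = 0.000946). Elavl4 (chr4:110203722-110351909, minus strand) had 13.8 and 13.4 CPM in parental cells, 26.5 and 23.4 in clone 1, and 15.9 and 17.0 in clone 2. All 4 labelled knockout libraries were above the parental pair, those of clone 1 by more.

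Elavl4 rose 1.83-fold in clone 1 (edgeR adjusted p = 7.29e-08) and 1.21-fold in clone 2 (0.00929). Its log2 fold change over both clones was 0.63 (SE 0.21) and did not pass in edgeR (adjusted p = 0.0828), whereas it was called in edgeR with no filter on low counts (0.0359) and by DESeq2 (0.0292). In clone 2 the call was lost without parental library 2 (edgeR adjusted p = 0.0659). Per base of exon, on the TPM scale that corrects for gene length and library size, Elavl4 was 1.73 and 1.6 times as abundant as Elavl3 in the parental libraries. That ratio was 14.2 and 14.9 in clone 1 and 8.59 and 8.48 in clone 2. Of the other members of the family, the broadly expressed Elavl1 was at a mean of 104, 118 and 104 CPM and Elavl2 at 6.97, 8.29 and 4.79 CPM in the parental, clone 1 and clone 2 libraries. Neither passed with the clones as replicates (edgeR adjusted p = 0.374 and 0.892), though in clone 1 alone both rose and in clone 2 alone Elavl2 fell.

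The tests of each clone alone came from 1 fit over the 6 libraries. In clone 1, 9 of the 9 genes passed, 3 higher and 6 lower, where 54.5% of all 23400 genes passed (27.3% higher and 27.2% lower). In clone 2, 8 of 9 passed, 2 higher and 6 lower, where 53.5% of all genes passed (26.7% higher and 26.8% lower). Both comparisons use the same parental libraries. The genes lower in each were Gap43, Dcx, Tubb3, Elavl3, Neurog2 and Stmn2. In this fit too, Neurog2 and Stmn2 passed the filter through the parental libraries alone, so their direction follows in part from the filter. Stmn2 missed the threshold in clone 1 without either parental library or either library of clone 1 (edgeR adjusted p from 0.0799 to 0.185), which left 8 of the 9 genes called. In clone 2 it missed it without either parental library or the second library of clone 2 (0.0952 to 0.246), and its fitted change there was -3.76 without the first, against -1.99 with all.

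The clones were then compared with each other. Of the 9 genes, 5 differed: Hes6 was higher in clone 2, and Gap43, Map2, Elavl4 and Dcx were lower. Over all 23400 genes 36.4% differed, 16.1% higher and 20.3% lower in clone 2. The largest difference was that of Gap43, 5.44-fold lower in clone 2 (log2 fold change -2.45, SE 0.11, edgeR adjusted p = 6.01e-11). Hes6 was 1.76-fold higher in clone 2 (0.81, SE 0.080, adjusted p = 8.02e-06), and Elavl4 and Map2 changed by -0.60 (SE 0.078) and -0.44 (SE 0.048). The difference in Dcx was small, at -0.30 (SE 0.069, adjusted p = 0.00275). Tubb3 (-0.29, SE 0.12) and Elavl3 (0.17, SE 0.14) did not pass, with edgeR adjusted p of 0.0804 and 0.389, nor did Neurog2 (0.28, SE 0.82) and Stmn2 (-0.25, SE 0.84), whose errors are wide.

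The order of the genes by level, in mean TPM, differed between groups. In the parental libraries it was Map2 (119.9), Gap43 (100.9), Hes6 (28.7), Tubb3 (14.2), Dcx (10.7), Elavl4 (5.12), Elavl3 (3.08), Neurog2 (0.86) and Stmn2 (0.0912), with no overlap between neighbours. The exons of Dcx, which stood above Tubb3 in CPM and below it in TPM, span 12647 bases against 1868. In clone 1 Gap43, at 6.71 TPM, came behind Map2 (160.8), Hes6 (47.3) and Elavl4 (8.72). In clone 2 Gap43, at 1.33 TPM, was also below Tubb3 (2.87) and overlapped with Dcx (1.36). Neurog2 and Stmn2 were the lowest in all 3 groups, at or under a mean of 0.0503 TPM in the clones, and they overlapped in clone 1.

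The relatives of the 9 genes differed in how they changed. Among the doublecortin genes, Dclk1 fell with the clones as replicates (-0.77, SE 0.10 for its log2 fold change, edgeR adjusted p = 0.00537) from a mean of 353 CPM to 190.3 and 214 CPM. This call was lost without either parental library (adjusted p = 0.068 and 0.0638). Dclk2 (-0.29, adjusted p = 0.232) and Dclk3 (-3.05, adjusted p = 0.052) did not pass over both clones. Each clone alone, however, had all 4 doublecortin genes lower, Dcx among them. Of all genes 27.2% were lower in clone 1 and 26.8% in clone 2. Dclk2 was at -0.54 (edgeR adjusted p = 8.93e-09) in clone 1 and only -0.13 (0.0148) in clone 2. Dclk3 was at -2.22 (edgeR adjusted p = 2.4e-05) in clone 1, from 64 and 82 parental counts to 17 and 17, and at 1 and 2 counts in clone 2. In the stathmin family Stmn3 (-2.14, SE 0.20) and Stmn4 (-2.67, SE 0.26) fell, with edgeR adjusted p of 0.00188 and 0.00193. The ubiquitous Stmn1 was at a mean of 85.1, 85.4 and 66.7 CPM in parental, clone 1 and clone 2 libraries and did not pass over both clones (-0.13, adjusted p = 0.517), though it was lower in clone 2 alone.

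The microtubule-associated protein genes differed among themselves. Map1b, abundant in growing axons, fell from 257 CPM to 19.99 in clone 1 and 13.2 in clone 2, a log2 fold change of -3.93 (SE 0.22, edgeR adjusted p = 0.000438). Map1a fell by 1.24 (SE 0.12, adjusted p = 0.00185) and the broadly expressed Map4 by 0.42 (SE 0.085, adjusted p = 0.0214), the latter lost without parental library 1 (adjusted p = 0.31) or 2 (0.35). Mapt, which encodes tau, had a mean of 402 CPM in parental cells, 174.8 in clone 1 and 310.3 in clone 2 and did not pass with the clones as replicates (-0.69, SE 0.28, adjusted p = 0.134), though it fell in each clone alone. Map2 was the only gene of these 5 whose fitted log2 fold change was above 0.

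**Figure D3:**
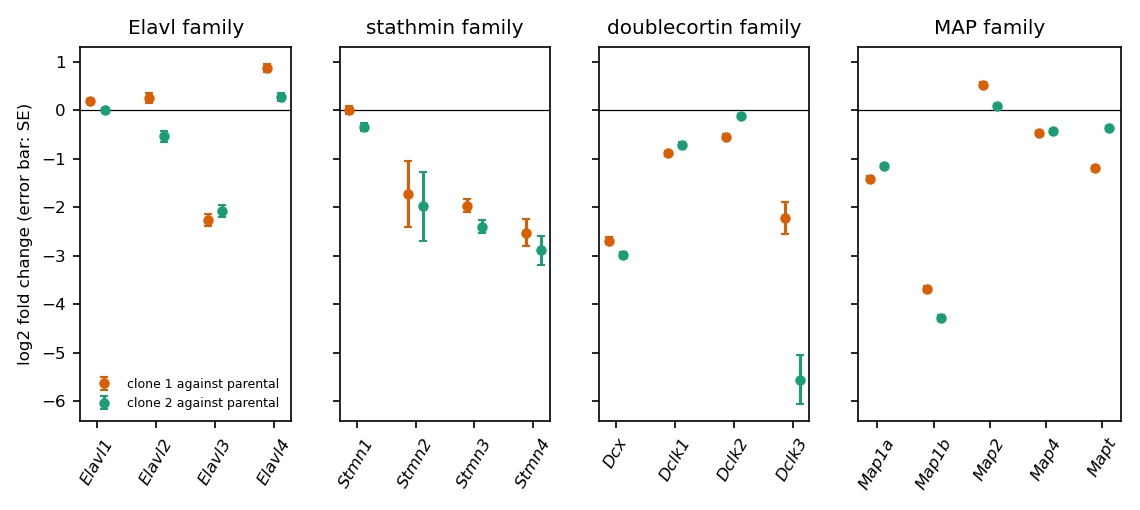
Log2 fold change against the parental libraries, with the standard error, for the Elavl, stathmin, doublecortin and microtubule-associated protein (MAP) families in clone 1 and clone 2. Elavl3 lies near -2 and Elavl4 above 0 in both clones, and Map1b lies below -3.6 while Map2 lies at or above 0.087.

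Other genes of neurogenesis were taken from fixed lists that leave out the 9 genes, compared with the clones as replicates. The list of 22 proneural activators also held Notch ligand genes and early neuronal factors. Of the 22, 15 were tested, of which 6 rose, 4 fell and 5 did not pass. The 7 not tested, Neurog1 and Neurog3 among them, were too low. The median log2 fold change was 0.57 against 0.03 for all genes tested, of which 13.0% rose and 13.6% fell. Of the 4 that fell, 3 (Neurod2, Myt1l and Ebf2) passed the filter on low counts through the parental libraries alone, so their direction follows in part from the filter. The early neuronal factor Sox11 rose by 1.21 (SE 0.087, edgeR adjusted p = 0.000832) and the Notch ligand gene Dll1 by 1.00 (SE 0.11, adjusted p = 0.00344). The related ligand gene Dll3 changed by -1.40 (SE 0.14, adjusted p = 0.00236). Sox4 rose by 0.57 (SE 0.10, adjusted p = 0.014), a call lost without parental library 1 (0.187) or 2 (0.222).

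Among 12 repressors of neurogenesis, 5 rose, 1 fell and 6 did not pass (median 0.07), where 13.0% of all genes rose and 13.6% fell. Hes1, the main effector of Notch signalling, rose by 1.64 (SE 0.11, edgeR adjusted p = 0.000687), from a mean of 20.1 CPM to 66.2 and 56.9 CPM. Id4 changed by -2.31 (SE 0.21, adjusted p = 0.00159). The corepressor genes Rcor1 and Rcor2 rose by 0.75 (SE 0.11) and 0.93 (SE 0.15), with edgeR adjusted p of 0.00744 and 0.0109. They were not called without parental library 1 (0.105 and 0.0527) or 2 (0.0941 and 0.0696).

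The list of cytoskeletal and adhesion genes of young neurons was lower for the most part. Of 25 genes 24 were tested, with a median of -0.78, where 13.6% of all genes fell and 13.0% rose. Of the 24, 13 fell, 0 rose and 11 did not pass. The number that rose was also 0 at an unadjusted p under 0.05 in edgeR (17 fell) and in DESeq2 (16 fell after adjustment). In clone 1 alone 20 of the 25 fell and 2, Ina and Nefl, rose, where 27.2% of all genes fell and 27.3% rose. In clone 2 alone 23 fell and 2 did not pass, where 26.8% of all genes fell. Tuba1a, the main alpha tubulin of young neurons, fell from 3393 CPM to 780.8 and 697.9 (-2.17, SE 0.10, adjusted p = 0.000321). Map1b, Map1a and Stmn3, described above, had the next smallest adjusted p. Among 12 neuronal RNA-binding protein genes 2 rose, 2 fell and 8 did not pass (median -0.01). The 2 of 12 in each direction are close to the 13.0% that rose and 13.6% that fell over all genes. Both that fell passed the filter through the parental libraries alone. The only called gene with a mean of at least 1 CPM by the naming rule was Nova1, at 0.30 (SE 0.082, adjusted p = 0.0493), which was lost in most alternatives, with adjusted p up to 0.528.

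Genes of synapses and mature neurons were called in both directions. Of 20 genes 15 were tested, of which 2 rose, 4 fell and 9 did not pass (median -0.17), so 6 of 15 were called, where 26.7% of all genes were; the 2 of 15 that rose are close to the 13.0% over all genes. The neuronal enolase gene Eno2 fell by 3.72 on the log2 scale (SE 0.32, edgeR adjusted p = 0.00139), from 8.53 CPM to 0.818 and 0.439 CPM. The synaptic vesicle gene Syn1 fell as well (-0.97, SE 0.19, adjusted p = 0.02), and the vesicle GTPase gene Rab3a rose by 1.08 (SE 0.13, adjusted p = 0.00379). Syn1 was not called without parental library 1 (adjusted p = 0.0659) or 2 (0.094), nor was Rab3a without parental library 1 (0.0593). The 20 genes summed to 391 to 397 CPM in parental cells, 360 to 384 in clone 1 and 374 to 376 in clone 2. Chat had 0 counts in both clones, and Th and Slc32a1 had 0 in clone 2. Parental counts were low as well, at 14 and 4 for Chat, 1 and 0 for Th and 1 and 4 for Slc32a1. These genes were too low to be tested.

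**Figure D4:**
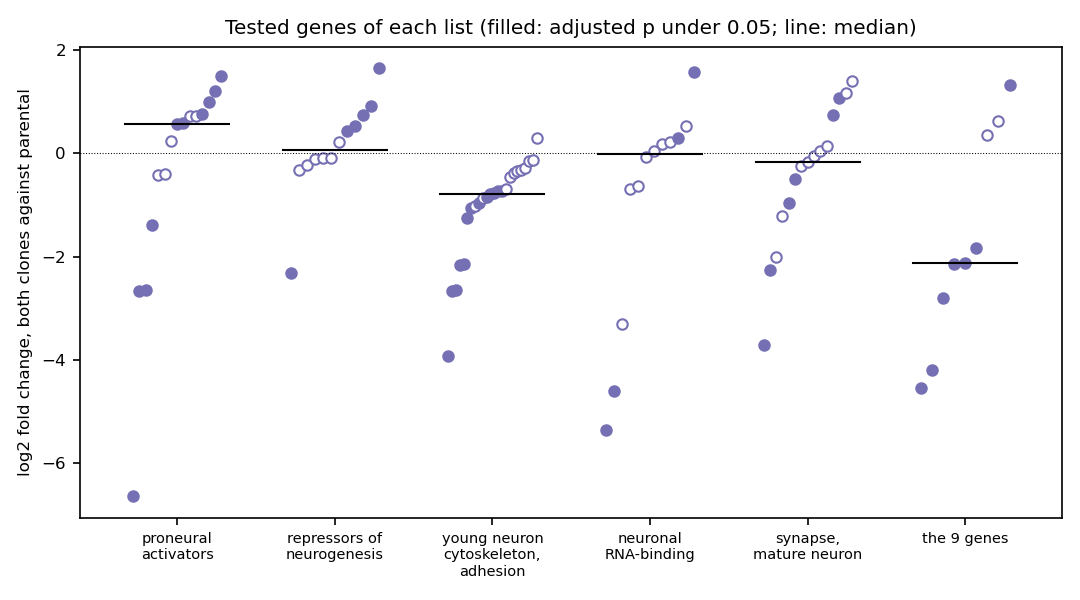
Log2 fold change of each tested gene in 5 fixed lists and in the 9 genes, both clones as replicates against parental; filled points passed an adjusted p of 0.05 and lines are medians. The cytoskeleton and adhesion list has its median at -0.78 and no filled point above 0, and the lowest point of the activators is Neurod2, with 0 counts in both clones, whose fitted value is no bound.

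Markers of proliferation and of other cell types also differed between the groups. The 8 proliferation markers all rose, from a sum of 64.0 to 64.6 CPM in the parental libraries to between 1156 and 1175 in clone 1 and 751 to 754 in clone 2. Of 10 astrocyte markers 5 fell, 1 rose and 4 did not pass. Their sum was 7375 to 7400 CPM in parental cells, 2870 to 2873 in clone 1 and 3805 to 3834 in clone 2. Some fell much further than the sum. Mean Gfap went from 2691 CPM to 1.59 in clone 1 and 9.7 in clone 2. Gja1 went from 431.7 to 0.556 and 1.1 and Aqp4 from 741.9 to 25.2 and 28.7, while S100b rose from 52.4 to 70.5 and 90.1. Slc1a2 (1054 CPM in parental cells, then 1113 and 1567) and Aldoc (682.7, then 427.6 and 886.5) did not pass over both clones. In clone 1 alone 7 of the 10 fell and 2 rose, S100b and Fgfr3. In clone 2 alone 6 fell and 4 rose, namely S100b, Slc1a2, Aldoc and Fgfr3. The shares of all genes are 27.2% lower and 27.3% higher in clone 1, and 26.8% and 26.7% in clone 2. Of 8 oligodendrocyte lineage markers 3 rose (Olig1, Olig2 and Cspg4) and 2 fell (Mbp and Mog). Over all genes tested 13.0% rose and 13.6% fell. Mog had 14 and 17 counts in parental cells and at most 2 elsewhere, and passed the filter through the parental libraries alone. The sum of the 8 was 1290 to 1292, 5243 to 5346 and 6189 to 6454 CPM in the parental, clone 1 and clone 2 libraries. Most of it was Olig1 (means of 616.8, 3072 and 3957 CPM) and Olig2 (411.7, 1719 and 1739 CPM). In clone 1 alone 3 of the 8 rose and 4 fell, where 27.3% of all genes rose and 27.2% fell. In clone 2 alone 4 rose and 4 fell, where 26.7% of all genes rose and 26.8% fell. Sox10 was lower in clone 1 and higher in clone 2. Markers of microglia (at most 2.04 CPM in sum), of vascular cells and fibroblasts (at most 5.02) and of pluripotent cells (at most 0.78) were low in all libraries. Those tested and called were lower over both clones: Ptprc of 6 microglial markers, Rgs5 and Pdgfrb of 6 vascular and fibroblast markers tested, and Nanog, the 1 pluripotency marker tested. Rgs5, a gene of pericytes, had 93 and 92 counts in parental cells and at most 4 in any other library, and Ptprc and Rgs5 passed the filter through the parental libraries alone. Col1a1 had 67 to 134 counts in every library and was not called over both clones. Cdh5, Lum, Zfp42 and Dppa5a of these lists had 0 counts in clone 2, but at most 8 in any library, and were too low to be tested. In bulk RNA, fewer cells of a type and less RNA per cell cannot be told apart, and the part of these and the progenitor markers in the results for the 9 genes was not tested.

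The genes with the pattern closest to each of the 9 were sought among 10506 genes of at least 5 CPM, by Euclidean distance between centred log2 CPM over the 6 libraries. The nearest were Glis3, Jcad and Efr3b for Dcx (distances of 0.0933, 0.236 and 0.241), and Asap3, Ampd3 and Prkag2 for Tubb3 (0.0633, 0.133 and 0.17). Elavl3 had Acsf2, Plcd4 and Cobll1 (0.176, 0.183 and 0.185), and Elavl4 had Ppat, Ing3 and Nucks1 (0.0842, 0.103 and 0.128). For Hes6 they were Rdm1, Mcrip2 and Shmt2 (0.157, 0.181 and 0.186), and for Map2 Ppfibp1, Zc3h12c and Vamp3 (0.0388, 0.0416 and 0.0529). Gap43 was closest to Reln (0.281), which encodes reelin and went from 45.5 CPM to 3.13 in clone 1 and 0.673 in clone 2, and then to Bmerb1 (0.518) and Plagl1 (0.984). Neurog2 and Stmn2 had no neighbour nearer than Rhou (0.708) and Mpv17l (0.96). With 6 libraries in 3 groups many genes can share such a pattern.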

How the data were processed

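RNA was isolated on columns and made into libraries with an ultra-low input cDNA kit or a TruSeq kit, per the labels' protocols, which do not say which library had which. STAR and featureCounts are named in the submitters' processing notes (no version is stated), with GRCm38.p6 and mm10 as builds. The authors deposited whole-number counts per gene, not normalized, for 6 libraries. No source used here gives the strand setting or the treatment of reads with several matches, so overlapping genes (Elavl3 with Gm49318, Map2 with the antisense Gm10558) and near-identical copies may share reads.

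Columns were matched to samples by library name. Counts were tested in R 4.3.3 with edgeR 4.0.16 (filterByExpr with a minimum count of 10, TMM scaling, robust quasi-likelihood test, Benjamini-Hochberg adjustment over all tested genes, threshold 0.05). For both clones against parental, the 2 libraries of a clone were added, leaving 4 columns with 2 residual degrees of freedom. For the 3 other comparisons, contrasts were taken from a single fit to all libraries, with 3 residual degrees of freedom. The SE is the log2 fold change divided by the square root of F. CPM used TMM-scaled library sizes. TPM used the merged exon length in GENCODE M21 (GRCm38), in which 41869 of the 42365 identifiers were found. Log2 CPM for pattern distances had a prior count of 2. No same-group pair of libraries matched within sampling noise (chi-square per gene from 3.48 to 22.1). Alternatives were other scalings, other filters, DESeq2 1.42.0, a replicate block, libraries as replicates and leaving out each library.

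The 9 genes and the lists were chosen with earlier results of these data known. Named were the 9 genes, their families, up to 4 called members of each list with the smallest adjusted p and a mean of at least 1 CPM, and the 3 genes closest in pattern to each of the 9. Values of some genes, the check of the targeted gene among them, are not reported here.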

Additional observations from a re-analysis of the deposited data

Results flagged for a closer look

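For 5 of the 9 genes the effect differed between the labelled knockout clones, by the direct test of clone 2 against clone 1 (edgeR's quasi-likelihood test, 2 libraries a clone). Of all 23400 genes tested 36.4% differed in the same test, so such a difference was not particular to these genes. On the log2 scale the difference was -2.45 for Gap43 (SE 0.11, adjusted p = 6.01e-11), with both libraries of clone 2 below both of clone 1. Hes6 differed by 0.81 (SE 0.080, adjusted p = 8.02e-06), with both libraries of clone 2 higher. Elavl4 differed by -0.60 (SE 0.078, adjusted p = 1.53e-05), Map2 by -0.44 (SE 0.048, adjusted p = 2.84e-06) and Dcx by -0.30 (SE 0.069, adjusted p = 0.00275). These tests treat libraries of a clone as replicates, and whether they came from separate cultures is not given.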

How the results depend on the processing

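With the clones as replicates, 6532 genes and 7 of the 9 passed in the fit reported. Over the fits without 1 library each, 2529 to 6714 genes and 4 to 7 of the 9 passed. The gene count was 13213 with libraries as replicates, which also called Elavl4 and Map2, and 3788 among genes of at least 5 CPM, a filter that leaves fewer genes to test. That filter gave 8014 genes in clone 1 (12752 in the fit reported) and 7845 in clone 2 (12520), where 5 of the 9 passed in place of 8, since Neurog2, Elavl3 and Stmn2 were not tested. The numbers do not pair the libraries by any label. A replicate block gave 6843 calls with the clones as replicates, with Gap43 (adjusted p = 0.269) and Stmn2 (0.0502) lost and Elavl4 (0.027) gained, 12659 in clone 1 (with Stmn2 lost, adjusted p = 0.0536, so that 8 of the 9 passed), 12412 in clone 2 and 8449 in clone 2 against clone 1. Deviations of same-numbered libraries correlated at -0.22 between parental and clone 1, -0.046 between parental and clone 2 and 0.22 between the clones, and a block with the numbers of clone 1 crossed, chosen after seeing the data, gave 12256 calls and 8 of the 9. With no filter Gap43 (0.165) and Stmn2 (0.056) were lost and Elavl4 (0.0359) was gained over both clones, and Map2 (0.00022) was gained in clone 2. Only values that never passed changed sign: Elavl2 to 0.032 with no filter, and in clone 2 against clone 1 Neurog2 to -0.38 and Stmn2 to 0.11 without the first library of clone 1, and Stmn2 to 0.51 without the second library of clone 2. In that comparison, on 1 to 7 counts a library, the values over all fits without 1 library ran from -0.38 to 1.72 for Neurog2 and from -2.05 to 0.51 for Stmn2. Dcx, Tubb3, Elavl3 and Neurog2 kept their direction and call in all alternatives with the clones as replicates in which they were tested.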
